A study of Homo sapiens with 6 samples.

Results

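The genes described here are the components of transforming growth factor beta (TGF-beta) and bone morphogenetic protein (BMP) signalling, in breast cancer cells that overexpressed the secreted metalloprotease ADAMTS1 and in cells with the vector. They were chosen by gene symbol: ligands, latent TGF-beta binding proteins, activin and inhibin subunits, receptors, SMAD proteins, SMURF ubiquitin ligases, SKI and SKIL, ID proteins, and secreted antagonists such as NOG, FST and GREM1. The deposited table held 31835 genes, of which 59 were members, and 34 of the 59 had a mean of at least 1 FPKM (fragments scaled to transcript length and to the library's mapped total) over all libraries and were tested. All 59 had a protein-coding entry in GENCODE 29 at an overlapping hg38 position.

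RNA-seq libraries were made from MDA-MB-231, an established human line of triple-negative breast cancer with mesenchymal features. The groups were 3 libraries from cells overexpressing ADAMTS1 and 3 from cells with the vector. The form of ADAMTS1 in the construct, the promoter that drove it, and whether the cells were 1 clone are not stated in the labels. The labels name no drug, ligand or inhibitor added to either group. Nothing in them says that the 3 libraries of a group are independent cultures. The p-values therefore reflect only library-to-library spread, which may be technical.

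ADAMTS1 itself was at 499, 462 and 501 FPKM in the ADAMTS1 libraries, against 6.56, 6.72 and 6.99 FPKM in the vector libraries, so every library matched its label. Depth relative to the first vector library was 1.044 to 1.429 in the ADAMTS1 libraries and 1.174 to 1.260 in the other vector libraries, and the absolute depth is unknown. The 6 markers taken as present in this line (VIM, CD44, AXL, CAV1, MSN and EGFR) summed to 961 to 981 FPKM in ADAMTS1 libraries and 947 to 982 FPKM in vector libraries. The sums hide single shifts without overlap. AXL averaged 279 FPKM in ADAMTS1 libraries and 300 FPKM in vector libraries, EGFR 27.6 and 29.5 FPKM, and MSN 128 and 126 FPKM. VIM, CD44 and CAV1 overlapped between groups. The lowest limma adjusted p among these markers was 0.342 (AXL). ESR1, PGR, CDH1 and ESRP1, taken as absent, had means of at most 0.125 FPKM, while EPCAM averaged 3.01 FPKM. Fibroblast markers (6 in the table) summed to 1.08 to 1.45 FPKM in ADAMTS1 libraries and 1.45 to 1.57 FPKM in vector libraries, nearly all of it COL1A1. Haematopoietic markers (3 in the table) and endothelial markers (5 in the table) reached sums of at most 0.346 and 0.778 FPKM in ADAMTS1 libraries, and 0.495 and 0.905 FPKM in vector libraries.

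TGF-beta ligands are secreted in a latent complex that latent TGF-beta binding proteins tether to the matrix, and matrix proteins, proteases and integrins can release them. A dimeric ligand joins type II and type I serine/threonine kinase receptors. The type I receptor then phosphorylates SMAD2 and SMAD3 for TGF-beta and activins, or SMAD1, SMAD5 and SMAD9 for BMPs, and these enter the nucleus with SMAD4. ID genes are classic BMP targets, and SMAD6 and SMAD7 are induced by the pathway and restrain it. In breast cancer the pathway is known both for growth arrest and for promoting invasion, and MDA-MB-231 is a common model of invasion.

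None of the 34 tested components passed the threshold of a limma adjusted p of 0.05 (limma, two-sided, adjusted over 11897 genes): 0 were higher and 0 were lower. Their adjusted p ran from 0.207 to 0.987, and 0 passed under any of the 13 alternative settings tried. Over all tested genes 8 passed, with ADAMTS1 itself among them, which is 0.0672%. An unadjusted p under 0.05 was reached by 6 components, 2 higher (TGFBI and SMAD7) and 4 lower (LTBP4, SMAD3, SMAD5 and SKI), which is 17.6% of those tested, against 12.2% of all tested genes (5.42% higher and 6.78% lower). That count was 3 without vector replicate 2 and 4 to 6 without any other single library. The members were chosen with earlier results of these data known, so the 17.6% is a description and not a test. The ADAMTS1 and vector values did not overlap for 8 of the 34 tested components, or 23.5%, against 18.8% of all tested genes. Of the 8, 2 were higher and 6 lower, against 8.15% and 10.6% of all tested genes.

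Each change is the ADAMTS1 mean minus the vector mean of log2(FPKM + 1), a scale that understates the change of low genes. They ran from −0.20 for LTBP4 to 0.17 for TGFBI, with 17 components above zero and 17 below (53.5% of all tested genes were below), and a median of −0.0019, against −0.0078 over all tested genes. No component had a 95% interval that reached a 1.5-fold difference in FPKM + 1, and 94.0% of all tested genes also stayed within that bound. Turned back to FPKM ratios, the intervals of 3 components near 1 FPKM did reach 1.5-fold: BMP6 (0.717 to 1.57), SMAD1 (0.607 to 1.148) and LTBP1 (0.648 to 1.14). The widest interval was that of BMP6, from −0.23 to 0.38.

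**Figure D1:**
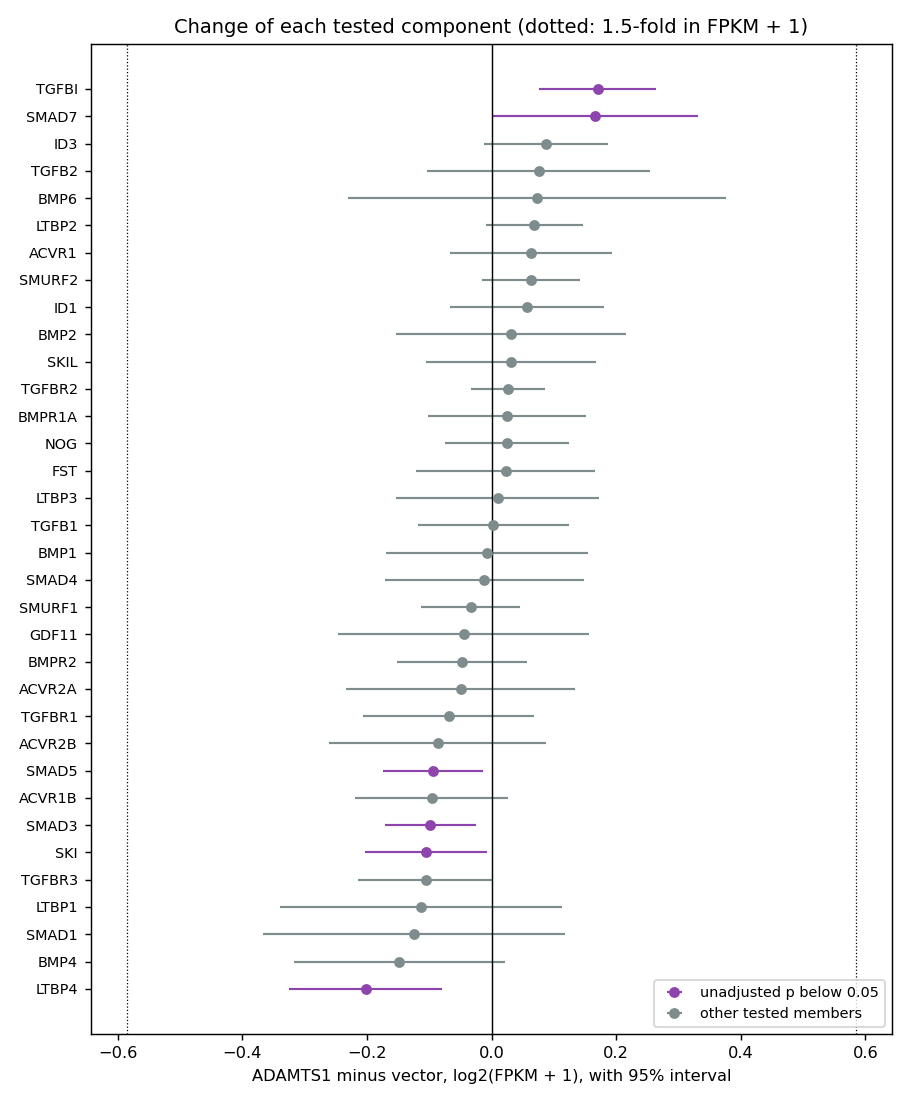
Change in log2(FPKM + 1), ADAMTS1 minus vector, of each of the 34 tested components, with its 95% limma interval, sorted from highest to lowest. The estimates run from 0.17 (TGFBI) to −0.20 (LTBP4), 6 intervals leave zero out, and none reaches the dotted lines at 1.5-fold in FPKM + 1, which is a wider bound in FPKM for components near 1 FPKM.

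Levels differed far more between components than between groups. FPKM is scaled by transcript length, so levels can be set beside each other roughly, though the annotation and strand setting are not known. A mean of at least 10 FPKM was reached by 13 components, 21 lay between 1 and 10 FPKM, and 25 lay below 1 FPKM. ID1 was the most abundant component, with a mean of 79.2 FPKM and rank 414 of all genes. TGFBI (59.6 FPKM), SMURF2 (50.6 FPKM), TGFBR2 (49.0 FPKM) and TGFB1 (40.1 FPKM) followed, at ranks 639 to 1039.

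**Figure D2:**
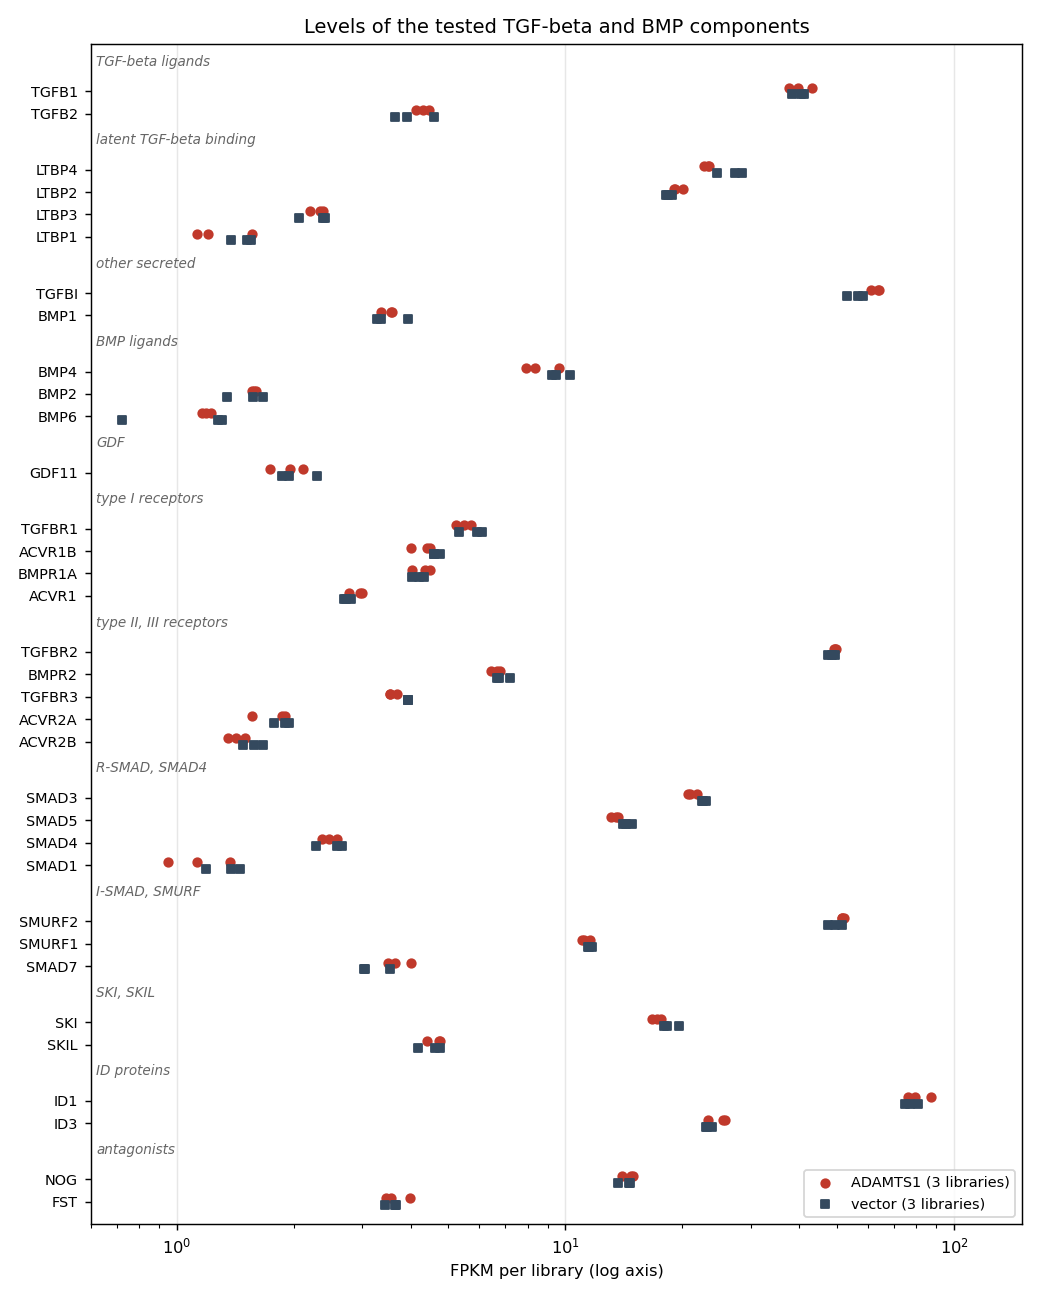
FPKM of each tested component in the 3 ADAMTS1 libraries (circles) and the 3 vector libraries (squares) on a log axis, grouped by role. Components spread from about 1 FPKM (SMAD1, BMP6) to 79.2 FPKM (ID1), while the 2 groups of each component lie close together.

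Promoter sequence is shown for 4 components known as targets of the pathway: TGFBI, named for its induction by TGF-beta, the feedback inhibitor SMAD7, and the BMP targets ID1 and ID3. Each run is the 250 bases before the RefSeq start (GRCh38.p14), on the gene's own strand. The TGFBI region is chr5:136028738-136028987 (plus strand), that of SMAD7 chr18:48950966-48951215 (minus strand), that of ID1 chr20:31605039-31605288 (plus strand) and that of ID3 chr1:23559502-23559751 (minus strand). Capitals mark matches on either strand to the SMAD box GTCT, its palindrome GTCTAGAC, which contains the box, and the GC-rich BMP SMAD motifs GGCGCC and GGAGCC.
TGFBI: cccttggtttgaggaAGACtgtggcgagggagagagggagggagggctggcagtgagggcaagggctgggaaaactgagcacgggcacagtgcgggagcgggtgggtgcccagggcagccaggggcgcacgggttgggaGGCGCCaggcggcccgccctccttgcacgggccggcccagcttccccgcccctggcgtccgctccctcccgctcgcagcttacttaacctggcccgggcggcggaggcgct
SMAD7: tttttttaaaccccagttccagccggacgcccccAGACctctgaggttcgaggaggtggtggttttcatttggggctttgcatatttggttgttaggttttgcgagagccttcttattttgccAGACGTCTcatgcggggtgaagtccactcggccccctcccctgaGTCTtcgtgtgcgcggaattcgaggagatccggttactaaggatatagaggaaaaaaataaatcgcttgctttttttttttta
ID1: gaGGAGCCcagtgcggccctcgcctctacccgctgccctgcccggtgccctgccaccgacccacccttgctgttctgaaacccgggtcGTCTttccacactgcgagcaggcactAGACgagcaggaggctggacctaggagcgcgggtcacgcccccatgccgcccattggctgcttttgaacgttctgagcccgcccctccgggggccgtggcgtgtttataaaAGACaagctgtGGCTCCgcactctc
ID3: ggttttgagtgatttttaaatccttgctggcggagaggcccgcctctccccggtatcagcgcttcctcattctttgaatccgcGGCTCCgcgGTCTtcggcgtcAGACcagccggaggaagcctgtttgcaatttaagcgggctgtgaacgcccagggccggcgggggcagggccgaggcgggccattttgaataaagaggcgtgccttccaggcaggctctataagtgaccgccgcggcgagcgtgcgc
The SMAD7 window held 4 SMAD boxes and no GC-rich motif, that of ID1 held 3 boxes and 2 GGAGCC, that of ID3 held 2 boxes and 1 GGAGCC, and that of TGFBI held 1 box and 1 GGCGCC. A box lay in 77.5% of all 35116 RefSeq windows of this length, GGAGCC in 30.6%, GGCGCC in 16.4% and the palindrome in 0.182%. Of the tested components 30 had a window, and 22 of them held a box, 15 held GGAGCC, 9 held GGCGCC and 0 held the palindrome. These are matches of letters, not binding sites.

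TGFB1 was the main TGF-beta ligand gene, with 89.8% of the summed FPKM of the 3 ligand genes. It was at 37.7, 43.1 and 39.6 FPKM in ADAMTS1 libraries, against 41.2, 40.5 and 38.4 FPKM in vector libraries. The groups overlapped, and the change was 0.0029 ± 0.052 (SE), with an interval of −0.12 to 0.12. Of its annotated exon bases, 6.64% overlap exons of HNRNPUL1 (84.3 FPKM) on the other strand, and the strand setting is not known here. TGFB2, the ligand that binds poorly without betaglycan, was at 4.12, 4.31 and 4.46 FPKM in ADAMTS1 libraries and 3.90, 3.63 and 4.59 FPKM in vector libraries. Its groups overlapped. Of the exon bases of TGFB2, 26.6% overlap the non-coding gene TGFB2-OT1 on the same strand. TGFB3 stayed under 0.5 FPKM in every library.

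Among latent TGF-beta binding proteins, LTBP4 and LTBP2 stood at like levels and took opposite signs. LTBP4, which tethers latent TGFB1 to elastic matrix, was at 23.4, 23.3 and 22.7 FPKM in ADAMTS1 libraries, against 28.5, 27.3 and 24.6 FPKM in vector libraries. Every ADAMTS1 value lay under every vector value, and the vector libraries spread more (SD 0.376 in ADAMTS1 libraries against 2.002 in vector libraries). The change was −0.20 ± 0.052 (limma unadjusted p = 0.0059, adjusted p = 0.238), and its adjusted p under the alternatives ran from 0.145 to 0.499. LTBP2, which binds fibrillin and, unlike its relatives, is not known to bind latent TGF-beta, was at 20.04, 19.2 and 19.0 FPKM in ADAMTS1 libraries, against 18.4, 18.9 and 18.1 FPKM in vector libraries. These values did not overlap either, with a change of 0.069 ± 0.033 (limma unadjusted p = 0.076, adjusted p = 0.462). The ratio of LTBP4 to LTBP2 FPKM was 1.168, 1.216 and 1.195 in ADAMTS1 libraries, against 1.55, 1.45 and 1.36 in vector libraries. Given the values above, these ratios could not overlap, so they add no separate result. Of the other ratios taken between pairs of components, SMURF2 to SMURF1 and SKI to SKIL did not overlap, and the rest did. SKI did not overlap on its own either. How often ratios of other gene pairs fail to overlap was not counted. LTBP3 averaged 2.30 ± 0.0940 FPKM in ADAMTS1 libraries and 2.28 ± 0.192 FPKM in vector libraries, and LTBP1 averaged 1.30 ± 0.232 and 1.48 ± 0.0929 FPKM in the same order (SD, n = 3 each).

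TGFBI, an adhesive matrix protein that binds integrins and collagens, had the highest change in log2(FPKM + 1) and the lowest p of the tested components. It was at 61.3, 64.1 and 63.9 FPKM in ADAMTS1 libraries, against 56.7, 58.4 and 52.9 FPKM in vector libraries. Every ADAMTS1 value lay above every vector value, and the ratio of means was 1.13. The change was 0.17 ± 0.040 (limma unadjusted p = 0.0036, adjusted p = 0.207), and its adjusted p under the alternatives ran from 0.128 to 0.436. SMAD7, at a lower level, had a larger ratio of means (1.16). With a pseudocount of 0.1 the change was 0.21 for SMAD7 and 0.17 for TGFBI. BMP1, a procollagen C-proteinase rather than a BMP-type ligand, was at 3.55, 3.57 and 3.35 FPKM in ADAMTS1 libraries and 3.28, 3.93 and 3.35 FPKM in vector libraries, with overlapping groups.

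BMP4 held 72.6% of the summed FPKM of the 8 BMP ligand genes present. It was at 7.93, 8.37 and 9.63 FPKM in ADAMTS1 libraries, against 10.3, 9.46 and 9.24 FPKM in vector libraries. The third ADAMTS1 library lay within the vector range, and the change was −0.15 ± 0.072 (limma unadjusted p = 0.078, adjusted p = 0.463). It ran from −0.22 without ADAMTS1 replicate 3 to −0.094 without ADAMTS1 replicate 1. BMP2 was at 1.58, 1.59 and 1.56 FPKM in ADAMTS1 libraries and 1.66, 1.57 and 1.35 FPKM in vector libraries, with overlapping groups. BMP6 was at 1.16 to 1.22 FPKM in ADAMTS1 libraries, within the vector range of 0.721 to 1.31 FPKM, which is wide because of the second vector library. GDF11, a relative of myostatin that signals through activin receptors, was the only growth and differentiation factor tested, at 1.74, 2.12 and 1.95 FPKM in ADAMTS1 libraries and 1.94, 2.29 and 1.86 FPKM in vector libraries.

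Activin and inhibin subunit genes were all under 1 FPKM. INHBB, the subunit of activin B, was at 0.0278, 0.169 and 0.0411 FPKM in ADAMTS1 libraries, against 0.313, 0.384 and 0.233 FPKM in vector libraries. The values did not overlap, and with no filter on low values the change was −0.28 ± 0.073 (limma unadjusted p = 0.0089, adjusted p = 0.492). INHBB was singled out after its values were seen. INHBA, the subunit of activin A, was at 0.129 to 0.180 FPKM in ADAMTS1 libraries and 0.0902 to 0.159 FPKM in vector libraries.

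TGFBR2, the type II receptor for TGF-beta, held 78.0% of the summed FPKM of type II and III receptor genes and had the smallest SE of the tested components (0.025). It was at 49.2, 49.8 and 49.4 FPKM in ADAMTS1 libraries, against 48.7, 49.5 and 47.5 FPKM in vector libraries, with overlapping groups and an interval of −0.033 to 0.086. BMPR2, the type II receptor for BMPs, was at 6.65, 6.42 and 6.77 FPKM in ADAMTS1 libraries and 7.19, 6.65 and 6.76 FPKM in vector libraries, also overlapping. TGFBR3, which encodes the co-receptor betaglycan, was at 3.53, 3.69 and 3.53 FPKM in ADAMTS1 libraries, against 3.94, 3.93 and 3.93 FPKM in vector libraries. Its values did not overlap, with a change of −0.11 ± 0.046 (limma unadjusted p = 0.055, adjusted p = 0.421). The activin type II receptor genes ACVR2A and ACVR2B averaged 1.78 ± 0.187 and 1.42 ± 0.0713 FPKM in ADAMTS1 libraries, and 1.87 ± 0.0857 and 1.57 ± 0.0933 FPKM in vector libraries (SD, n = 3 each).

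Type I receptor genes were lower and more evenly shared. TGFBR1, the partner of TGFBR2, held 32.3% of their summed FPKM, at 5.70, 5.22 and 5.49 FPKM in ADAMTS1 libraries and 5.93, 5.33 and 6.10 FPKM in vector libraries. The groups overlapped. The TGFBR2 to TGFBR1 ratio was 8.636, 9.549 and 9.001 in ADAMTS1 libraries and 8.20, 9.29 and 7.78 in vector libraries, which overlapped as well. ACVR1B, a type I activin receptor, was at 3.999, 4.484 and 4.402 FPKM in ADAMTS1 libraries, against 4.60, 4.60 and 4.76 FPKM in vector libraries. Its values did not overlap, and the change was −0.096 ± 0.052 (limma unadjusted p = 0.108, adjusted p = 0.518), or −0.055 without ADAMTS1 replicate 1. The BMP type I receptor genes BMPR1A and ACVR1 averaged 4.28 ± 0.240 and 2.91 ± 0.122 FPKM in ADAMTS1 libraries, and 4.19 ± 0.148 and 2.74 ± 0.0602 FPKM in vector libraries, while BMPR1B, ACVR1C and ACVRL1 were under 0.3 FPKM in every library.

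Of the SMAD genes that carry the signal, 1 member of each branch dominated in RNA, with SMAD2 and SMAD1 near 1 FPKM. SMAD protein was not measured here. SMAD3 was 21.6 to 22.9 times as high in FPKM as SMAD2 in ADAMTS1 libraries and 21.2 to 24.9 times as high in vector libraries. SMAD5 was 9.54 to 14.4 times as high as SMAD1 in ADAMTS1 libraries and 9.85 to 11.9 times in vector libraries. These ratios overlapped between groups.

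SMAD3 was at 21.9, 20.7 and 20.9 FPKM in ADAMTS1 libraries, against 23.0, 22.5 and 22.6 FPKM in vector libraries. SMAD5 was at 13.7, 13.1 and 13.5 FPKM in ADAMTS1 libraries, against 14.3, 14.8 and 14.1 FPKM in vector libraries. For each gene every ADAMTS1 value lay under every vector value, by a ratio of means of 0.932 in both. The change was −0.098 ± 0.031 for SMAD3 (limma unadjusted p = 0.016, adjusted p = 0.308). For SMAD5 it was −0.094 ± 0.034 (limma unadjusted p = 0.028, adjusted p = 0.346). The summed FPKM of the 6 SMAD genes of this class was 40.8, 39.3 and 39.6 in ADAMTS1 libraries, against 42.9, 43.0 and 42.1 in vector libraries. SMAD3 held 53.1% of this sum and SMAD5 most of the remainder. The sum therefore mainly restates those genes and adds no separate result. SMAD4, the shared partner, averaged 2.47 ± 0.110 FPKM in ADAMTS1 libraries and 2.50 ± 0.200 FPKM in vector libraries, and SMAD1 averaged 1.149 ± 0.213 and 1.34 ± 0.136 FPKM in the same order (SD, n = 3 each). Of the exon bases of SMAD4, 7.37% overlap exons of AC091551.1 on the same strand. SMAD2 (mean 0.968 FPKM) and SMAD9 (mean 0.732 FPKM) fell just under the filter.

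Among inhibitors of the signal, SMAD7, which recruits SMURF ligases to the receptors, was at 3.996, 3.504 and 3.640 FPKM in ADAMTS1 libraries, against 3.53, 3.03 and 3.04 FPKM in vector libraries. The lowest ADAMTS1 value lay just under the highest vector value, so the groups overlapped. The change was 0.17 ± 0.070 (limma unadjusted p = 0.049, adjusted p = 0.405), and an unadjusted p under 0.05 was kept in 7 of 12 alternatives. SMAD6, the inhibitory SMAD of the BMP branch, was under the filter, at 0.239, 0.232 and 0.200 FPKM in ADAMTS1 libraries and 0.301, 0.281 and 0.326 FPKM in vector libraries. Those values did not overlap, with SMAD6 on the opposite side to SMAD7, and with no filter on low values the unadjusted limma p was 0.133.

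SMURF2, a ubiquitin ligase for receptors and SMADs, was at 51.5, 51.6 and 52.1 FPKM in ADAMTS1 libraries, against 47.5, 49.5 and 51.6 FPKM in vector libraries. Its relative SMURF1 was at 11.17, 11.57 and 10.999 FPKM in ADAMTS1 libraries and 11.4, 11.5 and 11.7 FPKM in vector libraries. Both overlapped between groups, and 11.7% of the exon bases of SMURF1 overlap exons of TRRAP (8.92 FPKM) on the other strand. SKI, a nuclear corepressor of SMAD complexes, was at 17.2, 16.7 and 17.6 FPKM in ADAMTS1 libraries, against 17.9, 19.6 and 18.2 FPKM in vector libraries. Its values did not overlap, and the change was −0.10 ± 0.042 (limma unadjusted p = 0.039, adjusted p = 0.381). It was −0.067 without vector replicate 2, and an unadjusted p under 0.05 was kept in 6 of 13 alternatives. SKIL, its relative and itself a TGF-beta target, was at 4.40, 4.75 and 4.74 FPKM in ADAMTS1 libraries and 4.17, 4.76 and 4.61 FPKM in vector libraries, with overlapping groups.

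**Figure D3:**
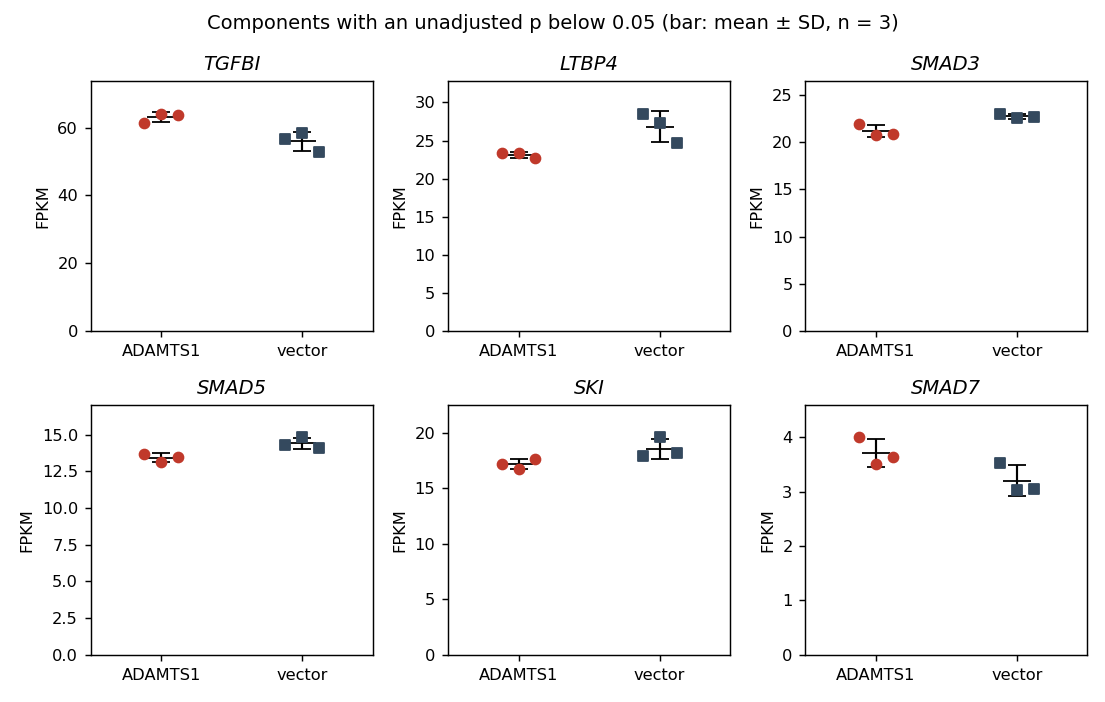
FPKM of the 6 components with an unadjusted limma p under 0.05, by library, with the ADAMTS1 group on the left of each panel, the vector group on the right, and the mean ± SD of 3 libraries as a bar; every axis starts at 0. TGFBI and SMAD7 are higher in the ADAMTS1 group, LTBP4, SMAD3, SMAD5 and SKI are lower, and only SMAD7 overlaps between groups.

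The ID genes encode helix-loop-helix proteins that lack a DNA-binding region and block differentiation factors. ID1 was at 76.2, 87.1 and 79.1 FPKM in ADAMTS1 libraries, against 74.8, 80.7 and 77.2 FPKM in vector libraries. ID3 was at 25.7, 25.4 and 23.3 FPKM in ADAMTS1 libraries, against 23.8, 23.1 and 23.0 FPKM in vector libraries. Both overlapped between groups, with changes of 0.057 ± 0.053 for ID1 and 0.087 ± 0.042 for ID3 (limma adjusted p 0.714 and 0.462). The ratio of ID1 to ID3 was 2.96, 3.43 and 3.40 in ADAMTS1 libraries and 3.14, 3.50 and 3.36 in vector libraries. ID2 was under the filter, at 0.282, 0.353 and 0.437 FPKM in ADAMTS1 libraries and 0.170, 0.217 and 0.270 FPKM in vector libraries. Its groups did not overlap, and with no filter its unadjusted limma p was 0.073. ID4 stayed under 0.12 FPKM.

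Of the secreted antagonists, NOG, which sequesters BMP ligands, was at 14.9, 14.8 and 14.0 FPKM in ADAMTS1 libraries, against 14.6, 14.6 and 13.6 FPKM in vector libraries. Set beside BMP4, its FPKM was 1.88, 1.76 and 1.45 times as high in ADAMTS1 libraries and 1.42, 1.55 and 1.47 times as high in vector libraries, with overlap. FST, which encodes the activin antagonist follistatin, was at 3.98, 3.45 and 3.56 FPKM in ADAMTS1 libraries and 3.65, 3.44 and 3.67 FPKM in vector libraries, also overlapping. GREM1 was listed above 0 in 1 vector library alone.

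The other members under the filter were low in both groups, with GREM1 (mean 0.000562 FPKM) the lowest and BMP8B (mean 0.665 FPKM) the highest of those not yet given a mean. In all, 25 members lay below a mean of 1 FPKM, 14 of them below 0.1 FPKM, and 10 were listed at 0 in at least 1 library. Those not described elsewhere were mainly ligand genes and subunit genes. The BMP genes were BMP8B, BMP8A (mean 0.0499 FPKM), BMP3 (0.0173), BMP10 (0.00802) and BMP5 (0.00638). The groups did not overlap for BMP8A, at 0.0711, 0.0533 and 0.0857 FPKM in ADAMTS1 libraries, against 0.0334, 0.0379 and 0.0177 FPKM in vector libraries. BMP3 did not overlap either, at 0.0220, 0.0198 and 0.0433 FPKM in ADAMTS1 libraries, against 0.0103, 0.00878 and 0 FPKM in vector libraries. With no filter on low values the unadjusted limma p was 0.054 for BMP8A and 0.141 for BMP3. How often groups fail to overlap among all genes under the filter was not counted. No such share therefore stands beside BMP8A, BMP3, INHBB, SMAD6 or ID2. The others were GDF15 (mean 0.141 FPKM), GDF5 (0.0655), GDF9 (0.0541), GDF7 (0.0204), INHA (0.118), INHBE (0.0209) and INHBC (0.00784). BMP8A and BMP8B are close copies of each other, so the division of reads between them is uncertain. Without the filter, 7 of the 59 members had an unadjusted limma p under 0.05, against 7.15% of all 31835 genes in that fit: TGFBI, LTBP4, SMAD3, SMAD5 and SKI, which also did so with the filter, and TGFBR3 and INHBB. SMAD7 did not.

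Some components lie near each other in the genome, and their levels differed. TGFBI (hg38 chromosome 5, 136028988 to 136063818) and SMAD5 (136132845 to 136188747) are 69.0 kb apart and had changes of opposite sign, as given above. SMAD6 and SMAD3 are 281 kb apart on chromosome 15, at means of 0.263 and 21.9 FPKM. ACVRL1 and ACVR1B are 28.3 kb apart on chromosome 12, at 0.0157 and 4.48 FPKM. LTBP4 (chromosome 19, 40592883 to 40629818) and TGFB1 (41301587 to 41353922) are 672 kb apart.

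The rest of the pathway was described with 7 lists of other genes, 94 of which were tested. Their changes had a median of 0.0031. By limma adjusted p 2 rose and 0 fell, against 0.0588% of all tested genes higher, ADAMTS1 included, and 0.00841% lower. Both were in the list for release and processing of latent ligand (11 tested, median 0.053), which is shared with matrix proteolysis. THBS1, a matrix glycoprotein that can activate latent TGF-beta, rose to 82.3, 83.9 and 85.0 FPKM in ADAMTS1 libraries, against 67.0, 70.4 and 69.3 FPKM in vector libraries (change 0.28 ± 0.027, limma adjusted p = 0.042). PLAU, the urokinase that forms plasmin, rose to 119.4, 121.1 and 119.6 FPKM in ADAMTS1 libraries, against 100.9, 104.2 and 100.2 FPKM in vector libraries (change 0.24 ± 0.024, limma adjusted p = 0.042). Both calls were lost without any 1 of the 6 libraries, at limma adjusted p 0.091 to 0.211, and also with no filter on low values, with eBayes without trend and with the replicate block, at 0.163 to 0.192. An unadjusted limma p under 0.05 was reached by 23 of the 94 genes, 13 higher and 10 lower, or 24.5%, against 12.2% of all tested genes. The lists were chosen with earlier results of these data known. Such shares, here and for each list below, are therefore descriptions and not tests of the pathway.

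TGF-beta response genes (25 tested) had 0 past the threshold, a median of 0.013, and 5 higher and 2 lower at an unadjusted limma p under 0.05. Together these were 28% of the list, against 12.2% of all tested genes (5.42% higher and 6.78% lower). SNAI2, which encodes the repressor Slug, was at 6.64, 6.43 and 6.71 FPKM in ADAMTS1 libraries, against 5.14, 4.77 and 5.15 FPKM in vector libraries (change 0.33 ± 0.045, limma adjusted p = 0.092). TGM2, a transglutaminase that is also in the list for latent ligand, was at 60.3, 60.8 and 61.0 FPKM in ADAMTS1 libraries and 54.8, 53.0 and 53.6 FPKM in vector libraries (change 0.17 ± 0.024, limma adjusted p = 0.092). In both genes the groups did not overlap. SNAI2 and TGM2 passed only when genes under a mean of 5 FPKM were left out (limma adjusted p 0.0349 and 0.0351). CCN1, an abundant matricellular protein gene, was at 369.7, 371.3 and 366.5 FPKM in ADAMTS1 libraries and 370.1, 375.0 and 382.3 FPKM in vector libraries, with overlap.

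BMP response genes outside the component set (7 tested) had 0 past the threshold, a median of 0.11, and 3 higher and 1 lower at an unadjusted limma p under 0.05. Together these were 57.1% of a short list, against 12.2% of all tested genes (5.42% higher and 6.78% lower). Over all tested genes the median was −0.0078. GATA2, a transcription factor, was at 6.15, 6.38 and 6.12 FPKM in ADAMTS1 libraries, against 4.78, 5.66 and 5.45 FPKM in vector libraries. RUNX2, the osteoblast transcription factor, was at 4.63, 4.48 and 4.82 FPKM in ADAMTS1 libraries, against 5.71, 5.01 and 5.11 FPKM in vector libraries. Neither gene overlapped between groups, with changes of 0.20 ± 0.061 and −0.15 ± 0.057 (limma adjusted p 0.294 and 0.361). KLF4 and HES1 averaged 27.6 ± 0.786 and 6.98 ± 0.5499 FPKM in ADAMTS1 libraries, and 25.6 ± 1.26 and 6.27 ± 0.291 FPKM in vector libraries (SD, n = 3 each).

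SMAD regulators (40 tested) had 0 past the threshold, a median of −0.0032, and 1 higher and 5 lower at an unadjusted limma p under 0.05. Together these were 15% of the list, against 12.2% of all tested genes (5.42% higher and 6.78% lower). ANKRD11 averaged 24.1 ± 0.738 FPKM in ADAMTS1 libraries and 26.3 ± 0.453 FPKM in vector libraries (limma adjusted p = 0.245). LEMD3, an inner nuclear membrane protein that binds R-SMADs, averaged 6.71 ± 0.1498 FPKM in ADAMTS1 libraries and 7.45 ± 0.0731 FPKM in vector libraries (limma adjusted p = 0.252). FKBP1A, which holds type I receptors inactive, averaged 80.3 ± 1.87 and 77.9 ± 0.678 FPKM in the same order, and STRAP averaged 78.0 ± 1.85 and 77.9 ± 2.72 FPKM (SD, n = 3 each).

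Extracellular modulators (6 tested, median 0.0071), co-receptors and accessory receptors (7 tested, median −0.030) and ligands outside the component set (1 tested) had 0 past the threshold. By unadjusted limma p under 0.05 they had 1 higher and 1 lower, 1 higher and 0 lower, and 0 higher and 1 lower. In these short lists that was 33.3%, 14.3% and 100%, against 12.2% of all tested genes (5.42% higher and 6.78% lower). CRIM1, a transmembrane BMP-binding protein, averaged 89.3 ± 2.59 FPKM in ADAMTS1 libraries and 92.0 ± 0.590 FPKM in vector libraries, and FSTL1 averaged 29.9 ± 0.883 and 29.2 ± 0.498 FPKM in the same order. TWSG1, a BMP-binding partner of chordin, was at 19.5, 21.2 and 21.7 FPKM in ADAMTS1 libraries, against 23.2, 22.5 and 22.6 FPKM in vector libraries (limma adjusted p = 0.329). VASN, a TGF-beta binding protein, averaged 1.73 ± 0.0745 FPKM in ADAMTS1 libraries and 1.25 ± 0.272 FPKM in vector libraries (SD, n = 3 each; limma adjusted p = 0.342). ENG, the co-receptor endoglin, averaged 67.9 ± 1.80 FPKM in ADAMTS1 libraries and 64.2 ± 2.11 FPKM in vector libraries, PEAR1 averaged 16.7 ± 0.509 and 16.2 ± 0.549 FPKM, and NRP1 averaged 13.5 ± 0.468 and 14.2 ± 0.722 FPKM, in the same order (SD, n = 3 each). Whether PEAR1 acts in this pathway was not tested. AMH, the anti-Mullerian hormone, was at 6.78, 5.90 and 5.87 FPKM in ADAMTS1 libraries, against 8.71, 6.88 and 7.20 FPKM in vector libraries (change −0.25 ± 0.089, limma adjusted p = 0.333).

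**Figure D4:**
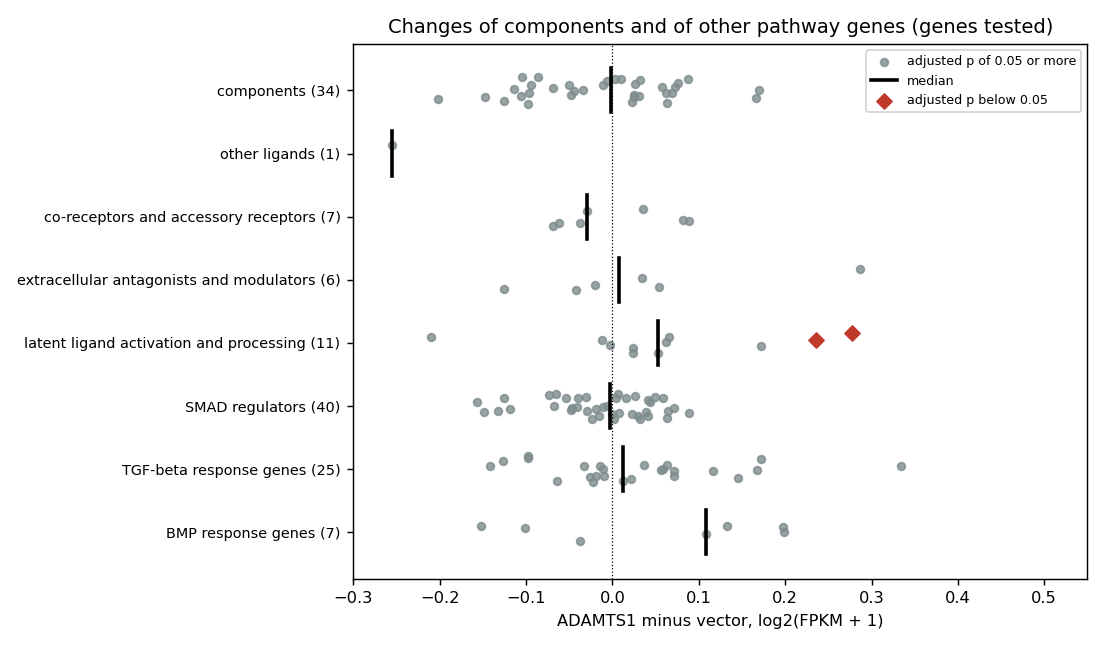
Change in log2(FPKM + 1), ADAMTS1 minus vector, of each tested gene, for the components and for 7 lists of other pathway genes, with the number tested in brackets, the median as a black line and a small vertical scatter within each row. THBS1 and PLAU, at 0.28 and 0.24, are the 2 genes past an adjusted p of 0.05, and the component median is at −0.0019.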

How the data were processed

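MDA-MB-231 total RNA, isolated by a Trizol-type method, went into standard Illumina libraries (per the labels' protocols). The 6 libraries fall into 2 groups of 3. The authors deposited a table of FPKM values per gene and library, with FastQC, HISAT2, StringTie and the build hg38 named in the submitters' processing notes. Versions, annotation, and strand setting were not given in the sources used here. FPKM is scaled to length and library total, so changes are relative to the rest of each library.

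Repeated symbols were reduced to their most abundant entry, leaving 31835 of 32119 entries. Genes with a mean of at least 1 FPKM (11897) entered a limma 3.58.1 fit (R 4.3.3, eBayes with trend) of log2(FPKM + 1), with Benjamini-Hochberg adjustment over all of them; the log2 values were computed here from the FPKM the authors deposited. The procedure was tested on simulated data with changes larger than that of any component, so that test does not cover changes as small as theirs. Relative depth was read from the commonest ratio of FPKM values between 0.02 and 0.5, with NumPy 2.4.6 in Python 3.11.15. Exon overlaps came from GENCODE 29 and promoters from RefSeq. Figures were drawn with Matplotlib 3.10.9.

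Correlations of log2(FPKM + 1) were 0.9906 to 0.9929 within groups and 0.9886 to 0.9921 between them. The labels give no batch. Members and lists were chosen with earlier results of these data known. Named components are those past the threshold, those with an unadjusted p under 0.05, and the 2 most abundant tested members of each role; of each list, the genes past the threshold are named, or else the 2 with the lowest p and the 2 most abundant. Others are named for completeness, and some genes that the rule names are not reported here. Alternatives changed the pseudocount (0.1), the filter (none, or 5 FPKM), the scaling (upper quartile, median of ratios), the trend, a replicate block, and left out each library.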

Additional observations from a re-analysis of the deposited data

How the results depend on the processing

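The count of 0 components past the threshold was the same in all 13 alternatives. The component median ranged from −0.025 without vector replicate 3 to 0.011 without ADAMTS1 replicate 3, within 1 SD between libraries (0.0246) of the main value. Over all genes, the 8 past the threshold became 1 with no filter on low values, 31 among genes with a mean of at least 5 FPKM, 2 with eBayes without trend, 1 with the replicate block, and 1 to 5 without 1 library. ADAMTS1 itself passed in every setting, so it was the only gene left wherever the count was 1. Its limma adjusted p was 2.54e-07 with no filter and 1.02e-06 with the replicate block. Of the other pathway genes, the 2 past the threshold became 0 with no filter, 4 at a mean of at least 5 FPKM, 0 without trend, 0 with the replicate block, and 0 to 0 without 1 library. The filters change the number of genes in the adjustment and also the variance fit. For SMAD3 the SE was 0.0312 in the main fit, 0.0262 with no filter and 0.0333 at a mean of at least 5 FPKM. The share of each in these counts was not tested, nor were the other causes. The 6 components at an unadjusted p under 0.05 became 3 to 6 without 1 library and 4 with the replicate block. Same-numbered libraries had correlations of deviations from their group means of −0.0022, 0.018 and −0.093, so the numbers were not taken as a pairing.

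Of 317 values for 25 named genes 306 kept their sign and side of the threshold and 11 changed sign, all in genes near zero with overlapping groups. Without 1 library, changes spanned −0.048 to 0.046 for TGFB1, −0.045 to 0.058 for BMP1, −0.020 to 0.071 for BMP2, −0.089 to 0.016 for GDF11, −0.015 to 0.064 for SKIL, −0.0069 to 0.053 for NOG and −0.026 to 0.056 for FST. TGFB1 was −0.048 without ADAMTS1 replicate 2 and −0.026 without vector replicate 3. BMP1 was 0.016 without ADAMTS1 replicate 3 and 0.058 without vector replicate 2. GDF11 was 0.0040 without ADAMTS1 replicate 1 and 0.016 without vector replicate 2. FST was −0.026 without ADAMTS1 replicate 1 and −0.00090 without vector replicate 2. BMP2 was −0.020 and NOG −0.0069 without vector replicate 3, and SKIL was −0.015 without vector replicate 1. Precision is limited by 3 libraries a group and an unknown depth.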
